A study of Mus musculus with 6 samples.

Results

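The D-type cyclins, their partner kinases Cdk4 and Cdk6, the INK4 inhibitors of these kinases, p27 and the Rb-related proteins p107 and p130 form the first switch of the cell division cycle. The group was defined by 10 gene symbols. Gene probes with one of them as their only platform symbol were taken, which gave 13 of the 34967 gene probes on the array, for 9 of the 10 genes. No probe carried Cdkn1b, the p27 gene, so it is not analysed here. Levels were read in neurospheres, floating clusters of neural precursor cells, grown from the dorsal telencephalon of C57BL/6 mouse fetuses at embryonic day 12.5. The anti-miR-335 group had 3 cultures that received antisense against the microRNA miR-335, an oligonucleotide with 2'-O-methyl bases, and the nonsense control group had 3 cultures that received an oligonucleotide of the same chemistry, labelled for EGFP. Both groups were of the same strain and age and grew in the same serum-free medium with 20 ng/ml bFGF, 20 ng/ml EGF and 0.15 ng/ml LIF, and the duration of the treatment is labelled 24 without a unit. The labels call the reagent a knockout, although an antisense oligonucleotide deletes no allele, and the level of miR-335 itself was not analysed here. The labels state 3 independent replicates per group, but neither how many fetuses went into a culture nor what was repeated between replicates. The p-values therefore reflect only how far these 6 samples vary, which may be technical variation.

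Growth factors raise the level of D-type cyclins in G1. The cyclins bind and activate Cdk4 and Cdk6, which phosphorylate Rb, p107 and p130 and so release E2F transcription factors that switch on genes of DNA replication. INK4 proteins such as p18 and p19 bind Cdk4 and Cdk6 and keep the cyclin away, whereas p27 acts on cyclin-kinase complexes. In the embryonic cortex the D-type cyclins take part in setting G1 length and the choice between division and differentiation, and Ccnd2 is a well-known D-type cyclin of cortical progenitors.

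The microRNA against which the oligonucleotide was directed lies on mouse chromosome 6, as does Ccnd2. Its mature strands are shown because they define the treatment, with the seed (bases 2 to 8) in capitals. The sequences are RefSeq's, build GRCm38.p6, plus strand, at chr6:30741314-30741336 for the 5p strand and chr6:30741354-30741375 for the 3p strand. The labels do not say which strand was targeted. No other name among the 1679 mature mouse microRNAs in the table had either seed.
mmu-miR-335-5p: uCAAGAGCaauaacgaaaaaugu
mmu-miR-335-3p: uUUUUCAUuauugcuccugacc

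Promoters are shown for 2 of the 3 members whose start region held motifs of the transcription factors best known to act in this pathway, as far as RefSeq's promoter table (GRCm38.p6) holds them. It gave 10 windows of 250 bases upstream of a gene start for 8 of the 10 genes, and Ccnd1 and Ccnd2 had none. Cdk4 is a well-known target of Myc, which binds the E-box CACGTG, a motif that reads the same on both strands. The Cdk4 window, chr10:127063285-127063534 on the plus strand, held 4 copies, in capitals. At least 1 copy stood in 6.02% of the 32851 windows of all genes and at least 4 in 7 windows. The Cdk6 window held 1 copy.
Cdk4: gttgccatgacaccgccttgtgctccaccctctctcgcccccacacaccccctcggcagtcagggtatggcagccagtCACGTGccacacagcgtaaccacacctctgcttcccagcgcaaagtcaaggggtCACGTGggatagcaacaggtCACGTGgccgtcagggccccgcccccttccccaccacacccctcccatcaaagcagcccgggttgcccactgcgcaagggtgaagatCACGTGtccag

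The E2F motif was searched on both strands as TTTCCCGC, TTTGGCGC, TTTCGCGC and TTTGCCGC. It stood in 1 of the 10 member windows and in 1.86% of all windows. The match lay in the promoter of Rbl1, the p107 gene, which encodes an E2F-binding pocket protein. The window is chr2:157204535-157204784 on the minus strand, printed 5′ to 3′ with the match, TTTCGCGC, in capitals, starting 18 bases before the gene start.
Rbl1: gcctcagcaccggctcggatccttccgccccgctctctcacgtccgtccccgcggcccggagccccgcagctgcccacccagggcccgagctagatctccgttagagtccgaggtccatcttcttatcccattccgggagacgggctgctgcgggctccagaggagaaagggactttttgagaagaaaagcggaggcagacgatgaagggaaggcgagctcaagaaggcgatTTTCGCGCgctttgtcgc

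All levels below are intensities scaled so that an array's median is 1, as deposited. The background limit of an array, 0.492 to 0.692, was the median of its negative control spots plus 3 scaled median absolute deviations. By this measure 9 of the 13 probes, for 7 genes, were above background on at least 3 of the 6 arrays. The other 4 probes, for Ccnd1, Rbl1, Ccnd3 and Cdk6, were above it on at most 1. Nonsense control replicate 1 stood apart from the other controls, with a Pearson correlation over 17843 bright probes of 0.980 and 0.972 with control replicates 2 and 3, against 0.993 between those and 0.983 to 0.985 with the anti-miR-335 arrays. The main differences below are therefore also given without that array. The cultures are bulk samples, in which fewer cells of a type and less RNA per cell cannot be told apart.

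The precursor label was checked against 9 measured marker genes, of which 7 were above background on at least 3 arrays. Of these 7, 5 had higher and 2 had lower levels with anti-miR-335, Nes being among the lower. Nes, the neural precursor filament gene, had 8.24, 9.50 and 8.36 in the anti-miR-335 cultures and 9.84, 9.08 and 9.94 in the control cultures, and the precursor transcription factor genes Sox2 and Pax6 were above background on all arrays. The dorsal gene Emx1 and the Notch effector gene Hes1 were above it on none. Of the ventral telencephalon markers measured, 5 of 6 were above background on at least 3 arrays. These ventral markers summed to 13.8 to 14.0 on the anti-miR-335 arrays and 13.9 to 14.4 on the control arrays. The dorsal origin is taken from the labels and was not tested. The precursor markers summed to 317 to 350 on the anti-miR-335 arrays and 280 to 309 on the control arrays, sums that the brightest genes, such as Fabp7 and Vim, carry. Their median log2 difference was 0.12 over the 7 and 0.02 without control replicate 1, and their median level by array, as log2 relative to each gene's mean over the control arrays, overlapped between the groups (0.01 to 0.21 with anti-miR-335, -0.09 to 0.15 in the control). Of other cell types, astrocyte markers (6 of 6 above background) summed to 122 to 149 against 119 to 134, and neuronal markers (6 of 7) to 12.0 to 15.0 against 9.0 to 13.4. The median log2 difference of the astrocyte markers was 0.29, or 0.47 without control replicate 1. That of the neuronal markers above background was 0.19, or 0.28 without that array. In each of these 2 lists 5 genes above background were higher and 1 lower. Oligodendrocyte lineage markers (6 of 6) summed to 25.8 to 53.0 against 18.4 to 42.6. Gene by gene, 2 were higher and 4 lower. Only the 2 higher genes had groups that do not overlap, as had 17.6% of all probes above background on at least 3 arrays. The median level of these markers by array was 0.31, 0.35 and -0.33 with anti-miR-335, and -0.34, 0.08 and 0.26 in the control. Their median log2 difference was -0.17, or -0.35 without control replicate 1. Microglial markers (2 of 5 above background, Itgam and Ptprc on no array) summed to 5.13 to 5.67 against 6.39 to 6.73. Of the 2 above background, 1 was higher and 1 lower. The median log2 difference was 0.0059 over these 2 and 0.23 over the 5 measured. Of the endothelial markers 2 of 5 were above background, with a median of -0.45, or -0.64 without control replicate 1. Of the mesenchymal markers 1 of 6 was above background. Without control replicate 1, limma called 3.17% of all probes at an adjusted p of 0.05. Among the measured markers it then called 2 of 9 precursor (Pax6, Slc1a3), 1 of 7 neuronal (Dcx) and 2 of 6 astrocyte genes (Aqp4, Gja1). It also called 1 of 6 oligodendrocyte lineage genes (Pdgfra) and 1 of 5 microglial genes (Trem2), and 0 of the ventral, endothelial and mesenchymal genes. The part of these markers in the differences below was not tested.

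Cyclin D2 mRNA was the member with the widest separation between the groups. It averaged 14.7 with anti-miR-335 and 22.8 in the control, while the mRNA of Cdk4, one of its partner kinases, and of the inhibitor p18 lay slightly higher. These 3 probes were the only ones of the 13 whose groups did not overlap. Ccnd2 was below and the other 2 above. Over all 34847 probes tested, 15.0% had groups that do not overlap, 7.59% with anti-miR-335 above and 7.37% with it below. The members were chosen with the results of this comparison known, so their values are a description and the count is read against nothing.

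Ccnd2, on chromosome 6 (chr6:127125162-127152188), had 15.3, 16.4 and 12.6 in the 3 anti-miR-335 cultures, against 22.5, 21.3 and 24.6 in the 3 control cultures. All anti-miR-335 values lay below all control values, and control replicate 1 lay between the other controls. The means were 14.7 ± 1.93 in anti-miR-335 cultures and 22.8 ± 1.66 in control cultures (SD, n = 3 each). The log2 difference, anti-miR-335 minus control, was -0.63 ± 0.12 (SE), a fold of 0.644 with a 95% interval of 0.536 to 0.775. Without control replicate 1 it was -0.64 ± 0.12. On the 2 arrays with scanner output, both of replicate 1, the Ccnd2 spot had a background-subtracted brightness of 997 with anti-miR-335 and 1372 in the control, over local backgrounds of 60 and 51.

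Ccnd3, the D-type cyclin gene best known from lymphocytes and muscle, was read by 2 probes. The probe above background had 3.64, 5.53 and 2.75 in the anti-miR-335 cultures, against 2.35, 5.06 and 6.12 in the control cultures. The groups overlapped throughout, and the spread within each group was wide, with means of 3.97 ± 1.42 and 4.51 ± 1.94 (SD, n = 3 each). Control replicate 1 held the lowest of the 6 values. The log2 difference was -0.13 ± 0.34 (SE) over all arrays, with a 95% interval of -0.88 to 0.62, and -0.55 ± 0.24 without control replicate 1. The second Ccnd3 probe was above background on no array and correlated with the first at 0.81 over the 6 arrays.

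Ccnd1, the D-type cyclin gene most widely induced by growth factors, was not measurable with its probe. It had 0.836, 0.170 and 0.376 in the anti-miR-335 cultures and 0.199, 0.448 and 0.272 in the control cultures. Only the first of these values was above its array's background limit, and no fold is given. For this probe, as for Cdk4 and the weaker Cdkn2c probe, the scanner output and the platform annotation give different accessions, whereas they give the same one for the other 10.

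**Figure D1:**
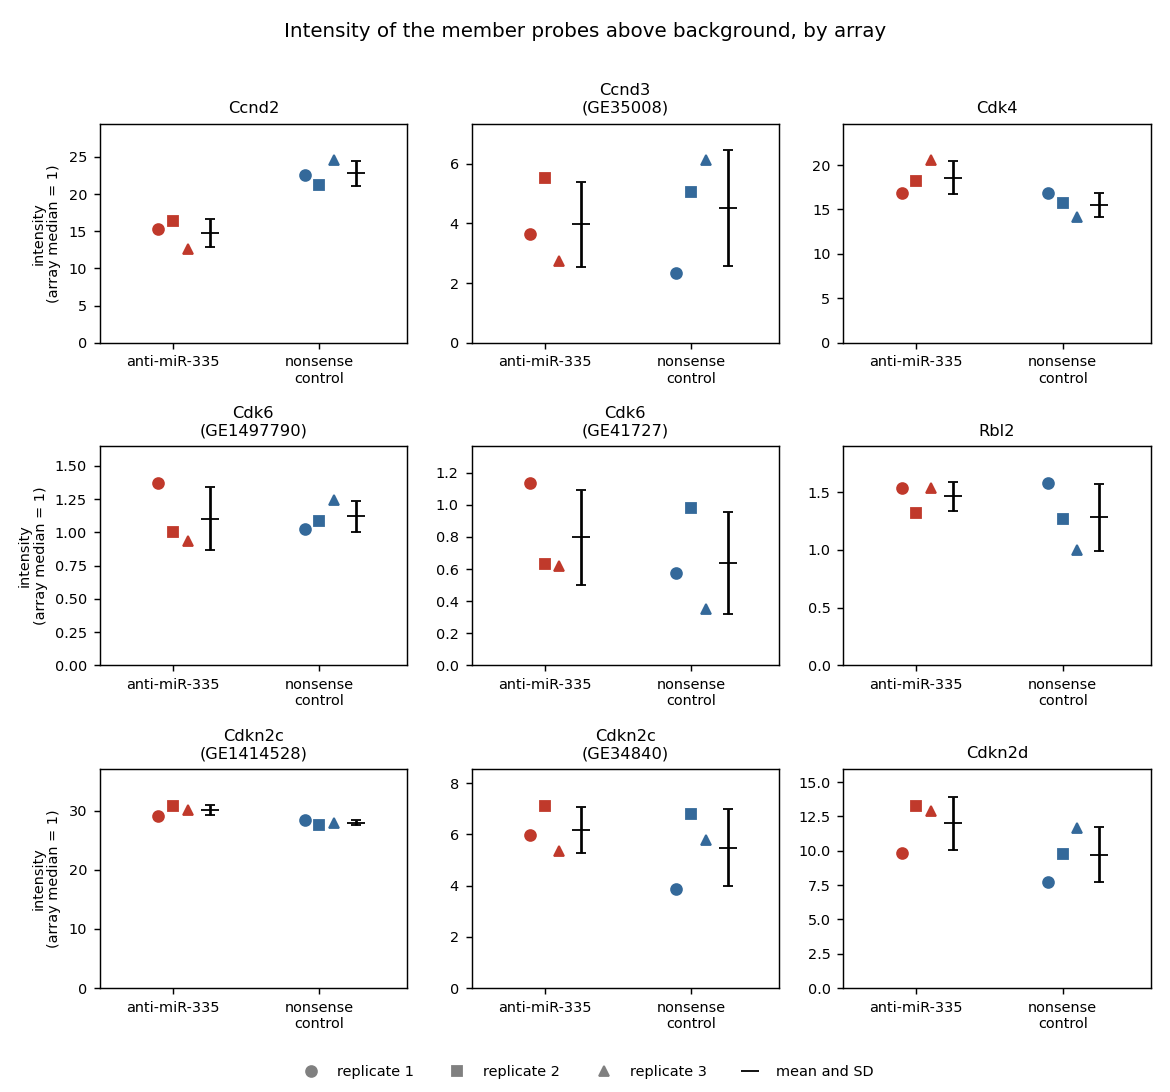
Intensity (array median = 1) of the 9 member probes above background on at least 3 arrays, with anti-miR-335 cultures on the left and nonsense control cultures on the right of each panel. Symbols are the replicates and bars the mean and SD (n = 3). Ccnd2 lies at 12.6 to 16.4 with anti-miR-335 and 21.3 to 24.6 in the control, and the groups of Cdk4 and of the brighter Cdkn2c probe also do not overlap.

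Among the kinases, Cdk4 (chr10:127063535-127067288) had 16.9, 18.2 and 20.5 in the anti-miR-335 cultures, against 16.8, 15.7 and 14.1 in the control cultures. The groups did not overlap, but anti-miR-335 replicate 1 and control replicate 1 were nearly equal. Means were 18.5 ± 1.86 and 15.5 ± 1.36 (SD, n = 3 each). The log2 difference was 0.25 ± 0.11 (SE), a fold of 1.19 with a 95% interval of 1.0 to 1.42, and 0.31 ± 0.10 without control replicate 1. On the replicate 3 arrays Cdk4 and Ccnd2 stood at opposite ends. Anti-miR-335 replicate 3 had the lowest Ccnd2 and the highest Cdk4, and control replicate 3 the highest Ccnd2 and the lowest Cdk4. Between replicates 1 and 2 both genes moved the same way, higher on anti-miR-335 replicate 2 and on control replicate 1. Their Pearson correlation was -0.88 over 6 arrays, a description that holds the difference between the groups as well as the spread within them.

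Cdk6, the other kinase partner of the D-type cyclins, was read close to background by 3 probes. The probe above background on all arrays had 1.37, 1.0 and 0.935 in the anti-miR-335 cultures and 1.03, 1.09 and 1.25 in the control cultures. The groups overlapped, and the log2 difference was -0.04 ± 0.21 (SE), with a 95% interval of -0.51 to 0.43. A second Cdk6 probe, above background on 3 anti-miR-335 arrays and 1 control array, had 1.14, 0.632 and 0.622 against 0.573, 0.979 and 0.354. The third was above background on no array. The first and the second Cdk6 probe correlated at 0.20 over the 6 arrays, and their values did not follow each other closely.

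Both INK4 inhibitor genes among the members had higher means with anti-miR-335. Cdkn2c, the p18 gene (chr4:109660876-109666756), had 29.2, 30.9 and 30.1 on its brighter probe in the anti-miR-335 cultures, against 28.5, 27.6 and 27.9 in the control cultures. The groups did not overlap, with SDs of 0.853 and 0.452 about means of 30.1 and 28.0, but the fold was 1.07, with a 95% interval of 0.930 to 1.24, and the log2 difference was 0.10, or 0.11 without control replicate 1. The weaker Cdkn2c probe had 5.98, 7.13 and 5.36 against 3.85, 6.81 and 5.78, with overlapping groups and control replicate 1 lowest. Its log2 difference was 0.20 ± 0.20 (SE), and -0.04 ± 0.13 without control replicate 1. The 2 Cdkn2c probes correlated at 0.20 over the 6 arrays.

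Cdkn2d, the p19 gene (chr9:21288459-21291421), had 9.81, 13.3 and 12.9 in the anti-miR-335 cultures, against 7.71, 9.80 and 11.7 in the control cultures. The groups overlapped, and control replicate 1 was again the lowest array. The means were 12.0 ± 1.91 with anti-miR-335 and 9.73 ± 1.98 in the control (SD, n = 3 each). The log2 difference was 0.31 ± 0.17 (SE), with a 95% interval of -0.06 to 0.68, and 0.15 ± 0.14 without control replicate 1.

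Of the Rb-related genes, Rbl2, which encodes p130, the pocket protein best known from resting cells, had 1.54, 1.32 and 1.53 in the anti-miR-335 cultures. It had 1.58, 1.27 and 1.0 in the control cultures. The groups overlapped, with control replicate 1 highest, and the log2 difference was 0.21 ± 0.20 (SE), or 0.37 ± 0.19 without that array. Rbl1, whose promoter is printed above, was above background on no array, with 0.256 to 0.392 in the anti-miR-335 cultures and 0.283 to 0.400 in the control cultures.

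**Figure D2:**
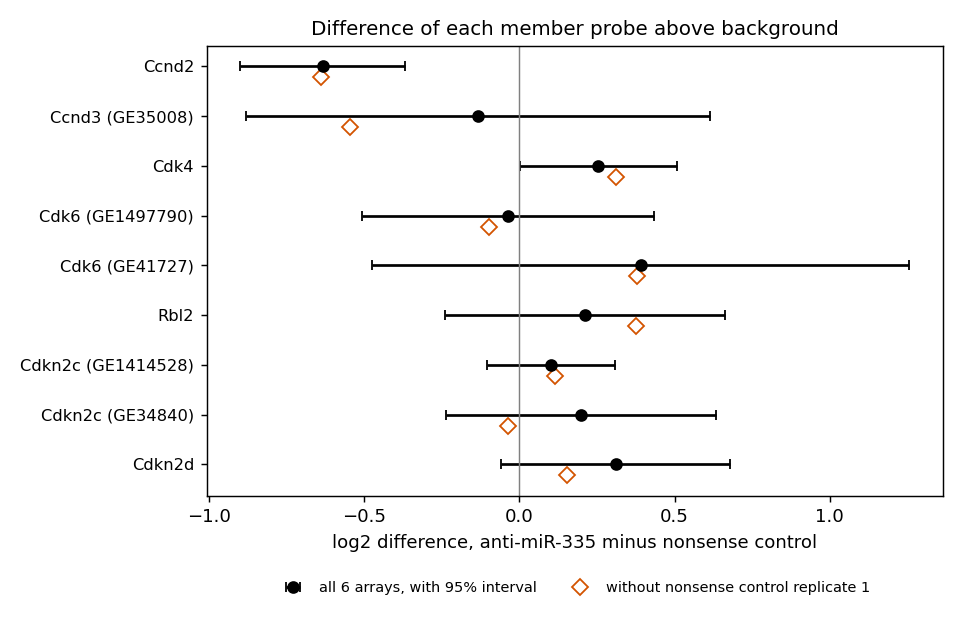
Log2 difference (anti-miR-335 minus nonsense control) of the 9 member probes above background on at least 3 arrays, with 95% intervals over all 6 arrays (filled circles) and the value without nonsense control replicate 1 (open diamonds). The interval of Ccnd2, -0.90 to -0.37, is the farthest from 0, and the diamonds of Ccnd3 and of the weaker Cdkn2c probe lie away from their circles.

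In the limma fit over all 34847 probes, 0 of the 13 member probes passed an adjusted p of 0.05, as did 0.0% of all probes. The members' adjusted p lay between 0.351, for Ccnd2, and 0.973. At an unadjusted p of 0.05, 2 of the 13, Ccnd2 and Cdk4, passed it, as did 9.07% of all probes. Cdk4 was higher, as were 4.91% of all probes at that p, and Ccnd2 lower, as were 4.17%. The p of Cdk4 by limma was 0.0483, and it was under 0.05 in only 4 of 14 alternatives (0.00694 to 0.202), whereas that of Ccnd2 was under 0.05 in 14 of 14. The limma p of Cdk4 was no longer under 0.05 without anti-miR-335 replicate 2 (0.0844) or 3 (0.202), or without control replicate 2 (0.0904) or 3 (0.170). Without control replicate 1, 1100 of 34654 probes passed (3.17%), and Ccnd2, with an adjusted p of 0.0298 by limma, was the only one of the 13 among them. The members were chosen with this comparison known, so these values are no support for a change. The median log2 difference over the 13 probes, 4 of them dim, was 0.20, against 0.01 over all probes tested, and it rested on single arrays. Leaving out control replicate 1 gave 0.03 and control replicate 3 gave 0.09. Leaving out anti-miR-335 replicate 1 gave -0.0457 and replicate 2 of that group gave 0.09. The 9 brighter probes had 6 positive and 3 negative differences, or 5 positive without control replicate 1. Over all probes above background on at least 3 arrays, 55.7% were positive, and 58.8% without that array.

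Other genes of the G1 pathway were taken from 9 lists, in which 75 of 84 genes were measured and 61 were above background on at least 3 arrays. By limma 0 of the 75 passed an adjusted p of 0.05, and 6 had higher and 2 had lower values at an unadjusted p of 0.05, together 10.7% of them, near the 9.07% of all probes. The median log2 difference of the 61 was 0.08, with 40 positive and 21 negative. Over all probes above background on at least 3 arrays the median was 0.03, with 55.7% positive, and 17.6% had groups that do not overlap. Genes named by rule below were those of smallest p in their list, so groups without overlap among them are a description. The list medians below moved when 1 array was left out, and their range is given beside them.

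The remaining inhibitors had 4 of 5 genes measured, and 0 passed. The brighter 3 had a median log2 difference of 0.05, between -0.08 without anti-miR-335 replicate 2 and 0.20 without anti-miR-335 replicate 1. Cdkn2b, the p15 gene of the INK4 family, lay at 11.4 ± 1.82 in anti-miR-335 cultures and 9.66 ± 2.06 in control cultures (SD, n = 3 each). Cdkn2a, which encodes p16 and Arf, lay at 1.04 ± 0.219 against 1.22 ± 0.449. For both genes the groups overlapped. Cdkn1a, the p21 gene, lay at 32.8 with anti-miR-335 and 31.3 in the control on average, and Cdkn1c, the p57 gene, was above background on no array.

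Of the Rb and E2F genes, 11 of 11 were measured, 10 of them above background, with a median log2 difference of -0.02 (-0.04 to 0.02 with 1 array left out, positive without either replicate 1 array, anti-miR-335 replicate 3 or control replicate 3) and 0 past the threshold. Rb1, the retinoblastoma gene, had 8.22, 8.28 and 9.59 in the anti-miR-335 cultures, against 8.49, 5.41 and 4.70 in the control cultures. Control replicate 1 lay within the range of the anti-miR-335 values, apart from the other controls. The log2 difference was 0.53 ± 0.19 (SE), and 0.78 without that array, where limma's adjusted p was 0.018. Tfdp1, the DNA-binding partner of E2F proteins, lay at 6.91 ± 0.565 with anti-miR-335 and 6.12 ± 0.565 in the control (SD, n = 3 each), with overlapping groups. The repressor gene E2f4, a main partner of p107 and p130, lay at 12.5 and 12.7 on average.

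The MuvB core, which joins p107 or p130 in a repressor of cell cycle genes, and B-Myb were measured for 6 of 6 genes, with a median of 0.03 and 0 past the threshold. The median lay between -0.04 without control replicate 2 and 0.14 without control replicate 1. Lin52, a MuvB subunit, lay at 0.721 ± 0.0341 in anti-miR-335 cultures and 1.05 ± 0.239 in control cultures (SD, n = 3 each), without overlap but near background. Rbbp4, a histone-binding subunit, lay at 76.7 ± 2.31 against 70.6 ± 8.29, with overlap. Of the cyclin E, cyclin A and Cdk2 genes, 5 of 5 were measured and 0 passed, with a median of 0.17 over the 4 above background, between 0.07 without control replicate 3 and 0.27 without control replicate 1. Cdk2, the kinase that acts after Cdk4 and Cdk6, lay at 3.69 ± 0.125 against 3.11 ± 0.630, and Ccne1, one of its cyclins, at 1.72 ± 0.209 against 2.03 ± 0.188. Neither of these 2 had overlapping groups, and their differences lie in opposite directions.

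The CDK activating kinase, which phosphorylates Cdk4 and Cdk2 on their activation loop, had 3 of 3 genes measured and 0 past the threshold, with a median of -0.06, between -0.13 without anti-miR-335 replicate 1 and -0.000186 without anti-miR-335 replicate 3. Its cyclin gene Ccnh lay at 11.1 ± 1.08 with anti-miR-335 and 9.0 ± 0.401 in the control (SD, n = 3 each), and its kinase gene Cdk7 at 4.99 ± 0.476 against 5.58 ± 0.475. Genes for turnover and folding of cyclin D, Cdk4 and p27 were measured for 11 of 13, with a median of 0.10 over the 10 above background, 9 of them positive, and 0 past the threshold. The median lay between 0.08 without anti-miR-335 replicate 2 and 0.16 without anti-miR-335 replicate 1. Cryab, a small heat shock protein reported as a partner of the cyclin D1 ubiquitin ligase, lay at 7.12 ± 0.490 against 5.85 ± 0.852. Cks1b, a cofactor of p27 ubiquitination, lay at 6.60 ± 0.446 against 5.80 ± 0.315. For Ccnh, Cryab and Cks1b the groups did not overlap. Ambra1, an adaptor of the ligase for D-type cyclins, had 44.3, 50.6 and 50.4 against 61.0, 31.5 and 25.7, so that control replicate 1 was the highest array.

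Inputs to transcription of the D-type cyclin and inhibitor genes were measured for 11 of 13, with a median of 0.03 over the 9 above background and 0 past the threshold. The median lay between 0.0018, with anti-miR-335 replicate 3 left out, and 0.12, with control replicate 2 left out. Ccndbp1, which encodes a binding partner of cyclin D1, lay at 11.8 ± 0.926 in anti-miR-335 cultures and 9.72 ± 0.998 in control cultures (SD, n = 3 each), without overlap. Ctnnb1, the beta-catenin gene of the Wnt pathway, had 27.9, 30.6 and 34.1 against 32.0, 22.1 and 17.5, with control replicate 1 among the anti-miR-335 values. Myc, named because the Cdk4 promoter above holds its motif and chosen after its values were seen, had 5.27, 10.3 and 8.86 against 6.99, 5.52 and 5.06. The groups of Myc overlapped.

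Downstream of the switch, E2F-regulated replication genes were measured for 15 of 18, with a median log2 difference of 0.14 over the 10 above background, 8 of them positive, and 0 past the threshold. Leaving out control replicate 1 gave a median of 0.08, as did anti-miR-335 replicate 2. The highest was 0.19, with control replicate 3 left out. Over all 15 measured the median was 0.02, with 1 gene higher and 1 lower at an unadjusted p of 0.05 by limma. Mcm2, Gins2 and Rrm1 were above background on no array. The replicative helicase genes Mcm4 and Mcm3 lay at 9.76 ± 0.258 and 5.63 ± 0.883 with anti-miR-335, against 8.30 ± 0.340 and 4.66 ± 0.414 in the control (SD, n = 3 each). The groups overlapped for Mcm3 and not for Mcm4. Pcna, the sliding clamp gene, had 26.4, 27.2 and 26.3 against 26.7, 25.9 and 23.6, with overlap. Mitotic cyclins and kinases were measured for 9 of 10, with a median of 0.13 over the 6 above background and 0 past the threshold. The median lay between 0.0392 without control replicate 3 and 0.30 without anti-miR-335 replicate 3. Aurka, a spindle pole kinase gene, lay at 2.01 ± 0.0929 against 1.68 ± 0.0460 without overlap, and the proliferation marker gene Mki67 at 1.15 ± 0.165 against 0.884 ± 0.328 with overlap.

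**Figure D3:**
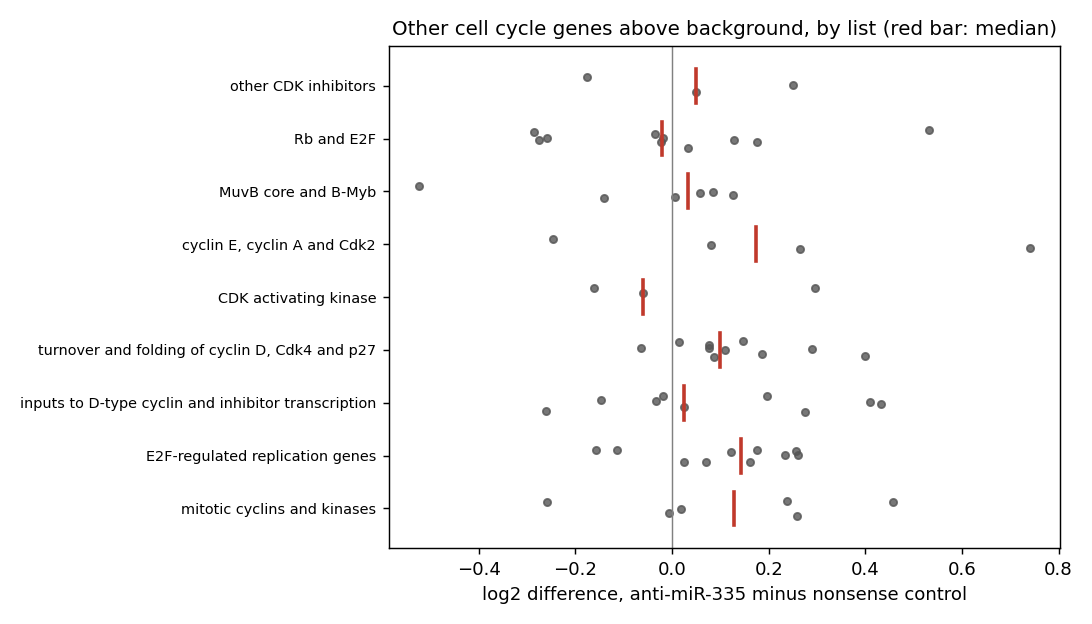
Log2 difference (anti-miR-335 minus nonsense control) of the 61 other cell cycle genes above background on at least 3 arrays, by list, with 1 point per gene (its brightest probe) and a red bar at the list's median. The medians lie between -0.06 and 0.17, and no gene passed the threshold.

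The genes whose pattern was most like that of Ccnd2 were taken from 12134 single-symbol probes above background on all 6 arrays, by Pearson correlation of log2 values over the 6 arrays. The first 5 were Synj2, a phosphoinositide phosphatase gene, Arhgef38, a guanine nucleotide exchange factor gene, Tshz2, a zinc finger gene, Desi1, a deSUMOylating isopeptidase gene, and Fnbp1, a formin-binding protein gene. Their correlations with Ccnd2 lay between 0.979 and 0.986. Fnbp1 had 66.2, 73.6 and 63.5 in the anti-miR-335 cultures, against 95.2, 86.1 and 103 in the control cultures. Arhgef38 had 7.84, 7.85 and 6.40 against 10.2, 10.8 and 12.0. In all 5, as in Ccnd2, anti-miR-335 replicate 3 was the lowest array and control replicate 3 the highest, and the groups did not overlap. With 6 arrays in 2 groups, a high correlation rests largely on the difference between the groups.

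**Figure D4:**
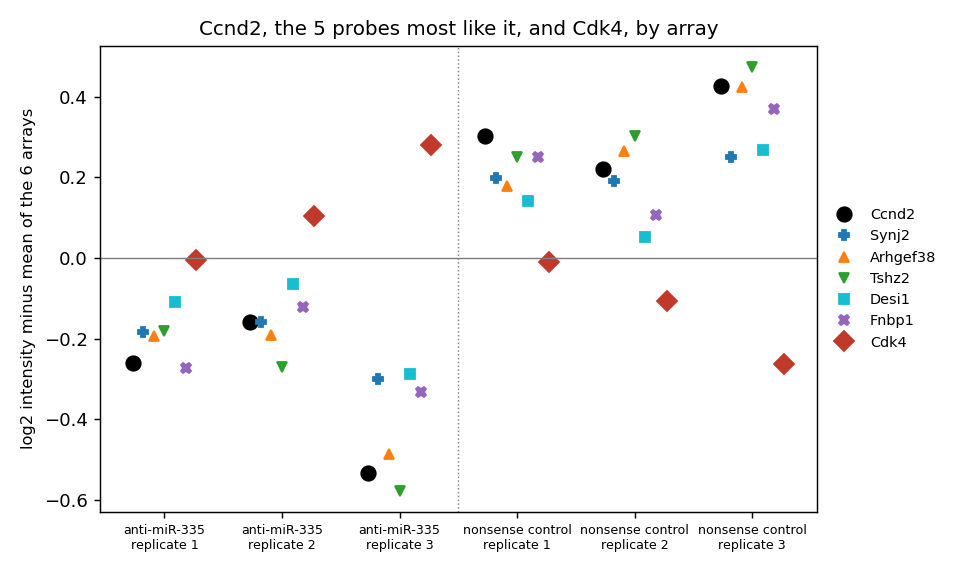
Log2 intensity minus the mean of the 6 arrays (vertical axis) for Ccnd2, the 5 probes most like it and Cdk4, with anti-miR-335 arrays on the left and nonsense control arrays on the right. Ccnd2 and the 5 probes lie below 0 on the anti-miR-335 arrays and above 0 on the control arrays, and Cdk4 lies lowest on control replicate 3.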

How the data were processed

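RNA levels were measured on 6 single-colour CodeLink mouse arrays, 3 anti-miR-335 and 3 nonsense control. The intensities deposited by the authors are linear and divided by each array's median, per the labels' description of the processing. On the 2 arrays with scanner output all deposited values (35976 and 36032) equalled its normalized intensity within 0.0001, and only masked spots and spots flagged I or C were empty. Intensities below the 5th percentile of positive values, 0.163, were raised to it before log2, and limma 3.58.1 under R 4.3.3 compared the groups two-sided, using lmFit and eBayes with an intensity trend and no covariate. Benjamini-Hochberg adjustment ran over the 34847 probes that had 2 or more values in each group. The script was tested on simulated data. Symbols came from the platform annotation, in which 21615 gene probes have 1 symbol, 681 several and 12671 none, and from RefSeq (GRCm38.p6), in which 21487 of the 21615 were found and 0 symbols changed. Where a list gene had several probes, the brightest was used. The number of arrays limits the precision. Scan and slide batches could not be tested, since scanner output was used for 1 array per group, both of replicate 1, without its header lines.

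The members and lists were chosen with earlier results of these data known. Genes were named by rule: every member probe, from each list the members past the threshold or otherwise the 2 of smallest p above background on at least 3 arrays, and the 5 probes most correlated with Ccnd2. Other genes named beside them (Cdkn1a, Cdkn1c, E2f4, Ambra1, Myc, Pcna) were chosen after their values were seen. The rule did not cover the genes named from the cell type marker lists. Samples with the same replicate number did not deviate together (correlations of -0.23, 0.04 and -0.26), so the numbers were not taken to pair the samples. Alternatives were quantile normalization, other floors, a filter on dim probes, the replicate block, array weights, no intensity trend and leaving out arrays.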

Additional observations from a re-analysis of the deposited data

How the results depend on the processing

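Ccnd2 was lower with anti-miR-335 under all 14 alternatives run (log2 difference -0.71 to -0.53), and its adjusted p by limma lay between 0.0298 and 0.886, under 0.05 only without nonsense control replicate 1. Cdk4, Rbl2, Cdkn2d, the brighter Cdkn2c probe and the second Cdk6 probe also kept their direction in 14 of 14, whereas Ccnd3 and the first Cdk6 probe turned in 3 and the weaker Cdkn2c probe in 2. The members' median log2 difference, 0.20, was 0.10 with log2 of intensity plus 1, 0.0047 with array weights and -0.0211 without both replicate 1 arrays, and -0.0457 to 0.22 when 1 array was left out. Over all probes, 0 passed, against 1 with quantile normalization, 5 with array weights, 1571 without both replicate 1 arrays, and 0 to 1100 when 1 array was left out. At an unadjusted p of 0.05 there were 3162 probes, against 5627 with array weights, 7204 without both replicate 1 arrays, 2263 with the replicate block and 1863 to 6373 when 1 array was left out. The replicate block changed no call at an adjusted p of 0.05. At an unadjusted p of 0.05, the block lost Cdk4 and added Cdkn2d. When 1 array was left out, 0 to 1 member probes passed, and 0 to 1 genes each of the Rb and E2F, turnover and transcription input lists, the highest without control replicate 1 (Ccnd2, Rb1, Ambra1 and Ctnnb1). Without both replicate 1 arrays these lists had 1, 1 and 2 genes past the threshold and the replication list 2. There the medians were 0.0726 for Rb and E2F, 0.17 for turnover and 0.0201 for the mitotic list, which ranged from 0.0392 to 0.30 when 1 array was left out. The cause of these shifts was not tested. Signal over background limits Ccnd1, Rbl1 and Cdk6, and 3 arrays per group limit the rest.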
